A study of Homo sapiens with 24 samples.

Results

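SKBR3 is a breast cancer cell line with an amplified HER2 (ERBB2) gene, and its cells were driven into therapy-induced senescence (TIS) by drugs with different targets. TVB-3166, which inhibits fatty acid synthase (FASN), was compared here with palbociclib, which inhibits the cyclin-dependent kinases CDK4 and CDK6. The 6 libraries were all those whose columns of the count table carry the name of either drug, 3 for each, out of 24 libraries in 8 groups, and every gene of the table entered the comparison. TVB-3166 cells received 250 nmol/L and palbociclib cells received 1 μmol/L, with the drug renewed on day 3 and collection on day 7. Untreated cells were collected on day 7 and on day 0, with 3 libraries each, and served as the background. The labels name a refeed on day 3 for both drugs and none for the untreated day-7 cells. If those cells were not refed, drug and refeed cannot be told apart in the comparisons with day 7. Both groups came from the same line, which is 1 HER2-amplified tumor and limits what the values say of other cells. Of the 14493 genes listed, each of which has at least 1 count in every library, 13776 passed a filter on low counts and were tested, and 717 were not.

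Fatty acid synthase builds palmitate from acetyl-CoA and malonyl-CoA, and HER2-positive breast cancer cells are known for high levels of this enzyme. When sterols are scarce in the endoplasmic reticulum, the SREBP transcription factors are cleaved, move to the nucleus, and switch on genes of fatty acid and cholesterol synthesis, whereas the PPAR receptors are switched on by fatty acids and their derivatives. CDK4 and CDK6, bound to D-type cyclins, phosphorylate RB and its relatives, which frees E2F factors to transcribe the genes of DNA replication, and inhibition of these kinases holds cells in G1. Senescent cells share a lasting arrest of the cell cycle and a secretory program, and its composition is known to vary with the inducer.

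The counts assigned to genes ranged from 29626473 to 31455795 in the TVB-3166 libraries and from 30060164 to 32354645 in the palbociclib libraries, so depth was similar in both groups. Levels are given as CPM, counts scaled to a common library size after TMM normalization, which balances libraries of different composition. The 3 libraries of a drug lay 37.5 to 43.2 apart, as a Euclidean distance between log2 CPM profiles, and libraries of different drugs lay 72.6 to 86.3 apart. The first principal component of the 6 libraries held 70.1% of the variance and separated the drugs. All 10 markers of breast epithelium and the HER2-amplified line were listed, with summed levels of 14300 to 17700 CPM in TVB-3166 and 14300 to 15100 CPM in palbociclib cells. Of the markers of other cell types, 1 of 7 fibroblast (COL1A1), 1 of 6 leukocyte (CSF1R), 2 of 4 endothelial (CDH5 and VWF), and 2 of 4 basal or myoepithelial genes (KRT17 and TP63) were listed. The summed level of the endothelial pair was 6.92 to 9.81 CPM in TVB-3166 and 38.9 to 45.8 CPM in palbociclib cells, and both genes were lower in TVB-3166. CSF1R was also lower, with 9.01 to 12.6 CPM against 17.5 to 20.5 CPM, and the defining leukocyte marker PTPRC and the endothelial marker PECAM1 were not among the listed genes. The part of other cell types in the differences was not tested.

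Between the drugs, 2754 genes (20.0% of those tested) were higher and 2780 genes (20.2%) were lower in TVB-3166 than in palbociclib TIS cells, 40.2% in all, by the quasi-likelihood test of edgeR at a p-value under 0.05 after Benjamini-Hochberg adjustment. Log2 fold-changes are given as TVB-3166 over palbociclib with their standard error, so that positive values mean a higher level in TVB-3166 cells. A fold-change of at least 2 was reached by 518 of the higher genes (3.76% of those tested) and 657 of the lower genes (4.77%), or by 530 (3.85%) and 672 (4.88%) with an unadjusted p-value under 0.05. The libraries of both drugs did not overlap for 7062 genes (51.3%). The methods speak of independent experiments in general, but the labels do not tie the 3 sequenced replicates of a drug to separate cultures. If they were not separate, these p-values measure only the spread between these libraries, which may be technical. In such bulk libraries, a smaller share of cells that express a gene and less of its RNA per cell cannot be told apart.

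**Figure D1:**
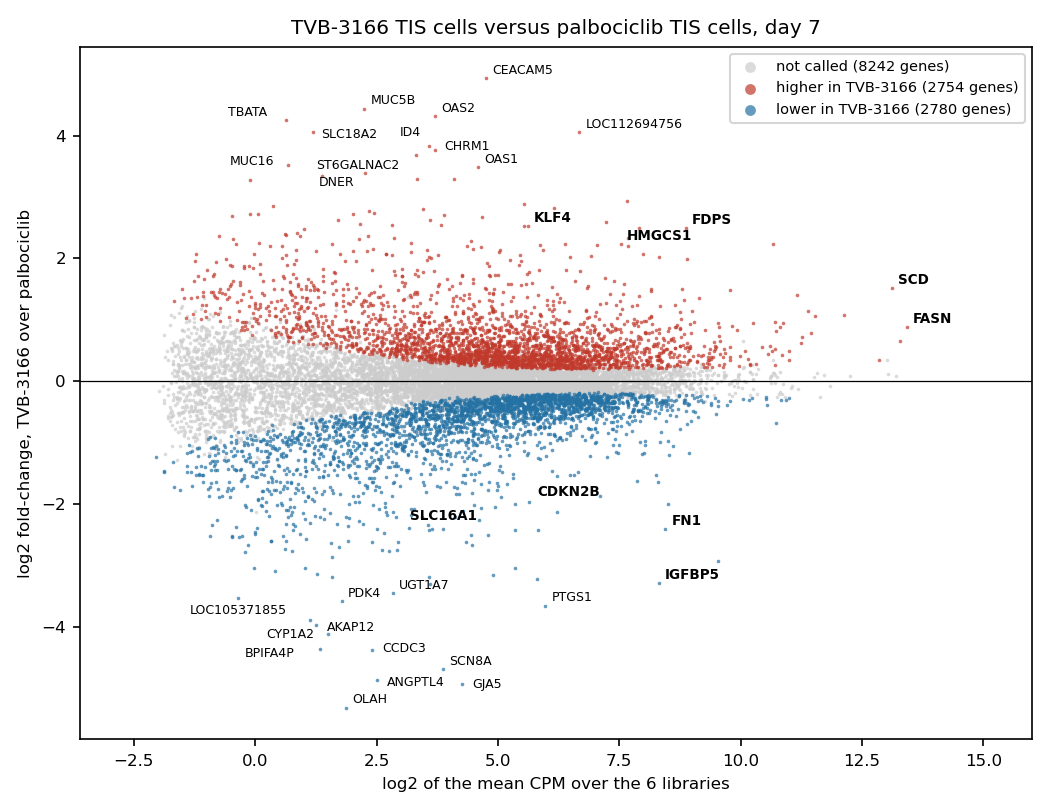
Each point is a gene tested, with the log2 of its mean CPM over the 6 libraries on the horizontal axis and the log2 fold-change of TVB-3166 over palbociclib TIS cells on the vertical axis. The 2754 genes higher in TVB-3166 are red and the 2780 lower genes are blue, and the labelled genes range from OLAH at -5.31 to CEACAM5 at 4.93.

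The genes with the largest positive differences between TVB-3166 and palbociclib cells encode surface glycoproteins and antiviral enzymes, among others. CEACAM5, the carcinoembryonic antigen (GRCh37 chromosome 19, positions 42212504 to 42234353), stood at 46.0, 51.9, and 58.2 CPM in the TVB-3166 libraries and at 1.19, 2.76, and 1.22 CPM in the palbociclib libraries. Its log2 fold-change was 4.93 ± 0.24 (edgeR adjusted p = 1.92e-07), and the untreated day-7 libraries held 4.52, 5.10, and 3.03 CPM. Every TVB-3166 library was thus far above every palbociclib library, with the untreated cells between them. Part of its reads may be shared with relatives of similar sequence. CEACAM6 was also higher in TVB-3166, at 378, 458, and 432 against 121, 176, and 151 CPM. Of 4 tested genes of the CEACAM family, 2 were higher and 1 was lower, against 20.0% and 20.2% of all genes tested. MUC5B, a gel-forming mucin, had 10.8, 6.99, and 9.30 CPM with TVB-3166 and 0.347, 0.286, and 0.597 CPM with palbociclib (log2 fold-change 4.44 ± 0.28). Untreated day-7 cells held 19.5, 10.9, and 12.1 CPM of it, and the palbociclib libraries were below all others.

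Others among the 12 genes with the largest positive log2 fold-changes were the antiviral enzymes OAS2 (4.32) and OAS1 (3.49), the vesicular monoamine transporter SLC18A2 (4.06), and ID4 (3.83), an inhibitor of helix-loop-helix transcription factors. The list went on with the muscarinic receptor CHRM1 (3.76), the sialyltransferase ST6GALNAC2 (3.69), the surface mucin MUC16 (3.52), the Notch ligand DNER (3.39), and TBATA (4.25). LOC112694756, an uncharacterized gene, was also among them (4.06) but varied widely within TVB-3166 cells, with 381, 179, and 17.1 CPM against 13.2, 11.1, and 10.2 CPM. Its level in TVB-3166 replicate 3 was close to the palbociclib libraries, and it was the least even of the 12 genes.

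At the other end, GJA5, which encodes the gap junction protein connexin 40 (GRCh37 chromosome 1, positions 147228332 to 147245466), stood at 1.44, 1.39, and 0.786 CPM in TVB-3166 cells and at 38.6, 35.2, and 37.0 CPM in palbociclib cells. Its log2 fold-change was -4.93 ± 0.17 (edgeR adjusted p = 3.39e-08), and the palbociclib level was close to the 36.5, 48.6, and 34.3 CPM of untreated day-7 cells. OLAH, a thioesterase that releases medium-chain fatty acids from FASN, had 0.167, 0.253, and 0.103 CPM against 6.98, 7.11, and 7.25 CPM (-5.31 ± 0.27). The lowest TVB-3166 library held 3 counts of OLAH, so the size of its fold-change rests on very few reads on that side. SCN8A, a voltage-gated sodium channel, was at 0.937, 1.04, and 1.30 CPM with TVB-3166 and at 26.8, 17.7, and 39.7 CPM with palbociclib (-4.68 ± 0.30).

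PTGS1, the prostaglandin synthase COX-1, was lower as well, at 6.19, 11.0, and 10.7 against 80.6, 147, and 121 CPM (-3.65 ± 0.24). The other 8 of the 12 genes with the largest negative log2 fold-changes were ANGPTL4 (-4.86), CCDC3 (-4.37), the pseudogene BPIFA4P (-4.35), CYP1A2 (-4.11), the kinase anchor AKAP12 (-3.96), the noncoding LOC105371855 (-3.88), PDK4 (-3.58), and UGT1A7 (-3.44). UGT1A7 shares its last exons with the other UGT1A isoforms, so that reads of one isoform could be assigned to another.

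Gene groups were described by the number of members called in each direction, beside the 20.0% higher and 20.2% lower among all genes tested, and by their median log2 fold-change, which was 0.00 over all genes tested. Members absent from the count table were not counted. Those listed were 26 of 41 interferon-stimulated genes, 26 of 42 inflammatory factors, and 25 of 37 secreted growth and matrix factors. Cholesterol synthesis had every tested member higher in TVB-3166 cells (20 of 20), followed by the interferon-stimulated genes (22 of 26), SREBP regulation and LDL uptake (12 of 17), the LXR receptors and targets (7 of 10), and the integrated stress response (24 of 35). Ribosome biogenesis lay on the opposite side, with 25 of 34 members lower, as did PPAR receptors and fatty acid oxidation (13 of 21) and DNA replication (20 of 41). Of the 37 genes that the paper names for the lipogenesis inhibitors, 22 were higher and 13 were lower in TVB-3166 than in palbociclib cells. Those genes were picked on these samples, so that their count is not independent evidence of a direction.

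The genes of fatty acid synthesis were more often higher than lower in TVB-3166 cells, and the target of the drug was among the higher ones. FASN itself (GRCh37 chromosome 17, positions 80036214 to 80056170) stood at 15300, 11400, and 15900 CPM in the TVB-3166 libraries and at 6360, 8670, and 8120 CPM in the palbociclib libraries. Its log2 fold-change between the drugs was 0.88 ± 0.16 (edgeR adjusted p = 0.00115), and the groups did not overlap. SCD, the desaturase that makes oleate, stood at 14100, 11400, and 14100 against 3850, 5360, and 4640 CPM (1.52 ± 0.14). Of the 21 tested genes of the group, 10 were higher and 3 were lower, with a median log2 fold-change of 0.24. ACSS2, which makes acetyl-CoA from acetate, was 4.20-fold higher at 528, 283, and 420 against 92.2, 107, and 94.0 CPM, and the desaturases FADS2 (1.60) and FADS1 (1.37) were higher too. The enzyme that supplies malonyl-CoA, ACACA, differed less (0.52). The 3 lower genes were OLAH, the acyl-CoA synthetase ACSL4 (-0.39), and FADS3 (-0.83).

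Each drug was also set against the untreated day-7 cells, in a single fit over all 24 libraries in which 14078 genes were tested. At an adjusted p-value under 0.05, 20.8% of these genes were higher and 21.9% were lower with TVB-3166, and 17.1% were higher and 18.2% lower with palbociclib. Both contrasts share the 3 untreated libraries, and their values are therefore only given side by side. FASN had a log2 fold-change of 1.30 with TVB-3166 (edgeR adjusted p = 8.18e-06) and of 0.42 with palbociclib (adjusted p = 0.0784). For SCD the values were 1.65 and 0.13, and for ACSS2 they were 2.19 and 0.12, where the TVB-3166 value was called in each case and the palbociclib value was not. The palbociclib value of FASN was called by DESeq2, however (0.43, adjusted p = 0.041), and with day 0 as the reference both FASN (0.97) and SCD (1.27) were called with palbociclib.

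Cholesterol synthesis was higher in TVB-3166 cells from its first to its last enzyme. All 20 tested genes were called higher, 13 of them at least 2-fold, and their median log2 fold-change was 1.33. FDPS, which makes farnesyl diphosphate, stood at 1160, 494, and 720 CPM with TVB-3166 and at 153, 135, and 134 CPM with palbociclib (2.49 ± 0.24). HMGCS1, which makes HMG-CoA, had 409, 215, and 290 against 66.7, 61.5, and 66.5 CPM (2.23 ± 0.18). In both genes TVB-3166 replicate 2 was the lowest and replicate 1 the highest of the TVB-3166 libraries, and each of them was above every palbociclib library. The log2 fold-changes of ACAT2 and MVD, which act before and after HMG-CoA, were 2.14 and 2.03. Relative to untreated day-7 cells, the median log2 fold-change of the 20 enzymes was 1.25 with TVB-3166 and -0.17 with palbociclib. In that fit, 16 enzymes were higher and 0 lower with TVB-3166, whereas 1 was higher and 5 were lower with palbociclib.

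The genes that control SREBP and take up LDL moved the same way for the most part, with 12 of 17 higher in TVB-3166 and a median of 0.53. INSIG1, which holds SREBP in the endoplasmic reticulum and is itself an SREBP target, stood at 422, 258, and 348 against 63.2, 66.9, and 73.1 CPM (2.34 ± 0.15). The cytosolic sterol carrier STARD4 was even among replicates, with 140, 131, and 143 against 30.3, 28.8, and 28.7 CPM (2.24 ± 0.08). For both genes the lowest TVB-3166 library was well above the highest palbociclib library. The ubiquitin ligase RNF145 (1.24) and the factors SREBF1 (0.95) and SREBF2 (0.58) were higher as well. SCARB1, the receptor for HDL, was the exception, being lower in TVB-3166 at 241, 193, and 234 against 515, 464, and 551 CPM (-1.20 ± 0.10). Relative to untreated day-7 cells, SCARB1 had log2 fold-changes of -0.29 with TVB-3166 and 0.91 with palbociclib, of which the second was called.

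The liver X receptors switch on sterol efflux when oxysterols accumulate, and 7 of 10 tested genes of that group were also higher in TVB-3166 cells. The apolipoprotein APOE was lower (-0.58), a call that was lost in the fits without TVB-3166 replicate 2 (0.108), TVB-3166 replicate 3 (0.0778), palbociclib replicate 1 (0.0606), palbociclib replicate 2 (0.0740), and palbociclib replicate 3 (0.0525), and in the fit over all 24 libraries (0.118), where parentheses give the adjusted p-value. ABCG1, a sterol exporter, stood at 186, 194, and 204 CPM against 38.8, 61.1, and 42.2 CPM (2.04 ± 0.14), with no overlap. LPCAT3 (0.79), SMPDL3A (0.78), and the ubiquitin ligase MYLIP (0.57) were higher by less. The other exporter, ABCA1, had 9.47, 7.31, and 8.82 against 6.25, 6.35, and 6.60 CPM (0.41 ± 0.15, edgeR adjusted p = 0.0412). That call was lost in the fits without TVB-3166 replicate 1 (0.127), TVB-3166 replicate 3 (0.111), palbociclib replicate 1 (0.106), palbociclib replicate 2 (0.0803), and palbociclib replicate 3 (0.0743), and in the fit over all 24 libraries (0.400) and with no filter on low counts (0.0553). Among the 19 tested genes of triglyceride synthesis and lipid droplets, 6 (31.6%) were higher and 1 (5.26%) was lower, with a median of 0.11. Of all genes tested, 20.0% were higher and 20.2% were lower. The acyltransferase GPAT3 (1.45) and the lipins LPIN2 (0.70) and LPIN1 (0.61) led the higher genes, and the lipase PNPLA3 was the lower one (-1.03).

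Target genes of the PPAR receptors lay on the other side. ANGPTL4, a secreted inhibitor of lipoprotein lipase, stood at 0.334, 0.474, and 0.308 CPM in TVB-3166 cells and at 10.6, 12.4, and 10.0 CPM in palbociclib cells, or -4.86 ± 0.22 on the log2 scale (edgeR adjusted p = 1.13e-07). PDK4, the kinase that closes pyruvate dehydrogenase when fatty acids are burned, had 0.569, 0.569, and 0.444 against 5.50, 6.70, and 6.89 CPM (-3.58 ± 0.22). CPT1A, which admits fatty acids into mitochondria, had 109, 117, and 124 against 205, 224, and 246 CPM (-0.94 ± 0.09). No TVB-3166 library reached a palbociclib library in any of the 3 genes. FABP5, a carrier of fatty acids, was lower too (-2.77), at low levels in both groups. In the whole group of 21 tested genes, 13 were lower and 1 was higher, the isomerase ECI1 (0.71), with a median of -0.46. The number of higher genes was 2 without TVB-3166 replicate 1, palbociclib replicate 2, or palbociclib replicate 3 and by DESeq2, and 4 with the replicate number as a block. Against untreated day-7 cells, ANGPTL4 was at -4.73 with TVB-3166 and 0.13 with palbociclib, and CPT1A at -1.28 and -0.33. PDK4 was the 1 of the 3 called in opposite directions, at -2.42 with TVB-3166 and 1.16 with palbociclib.

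**Figure D2:**
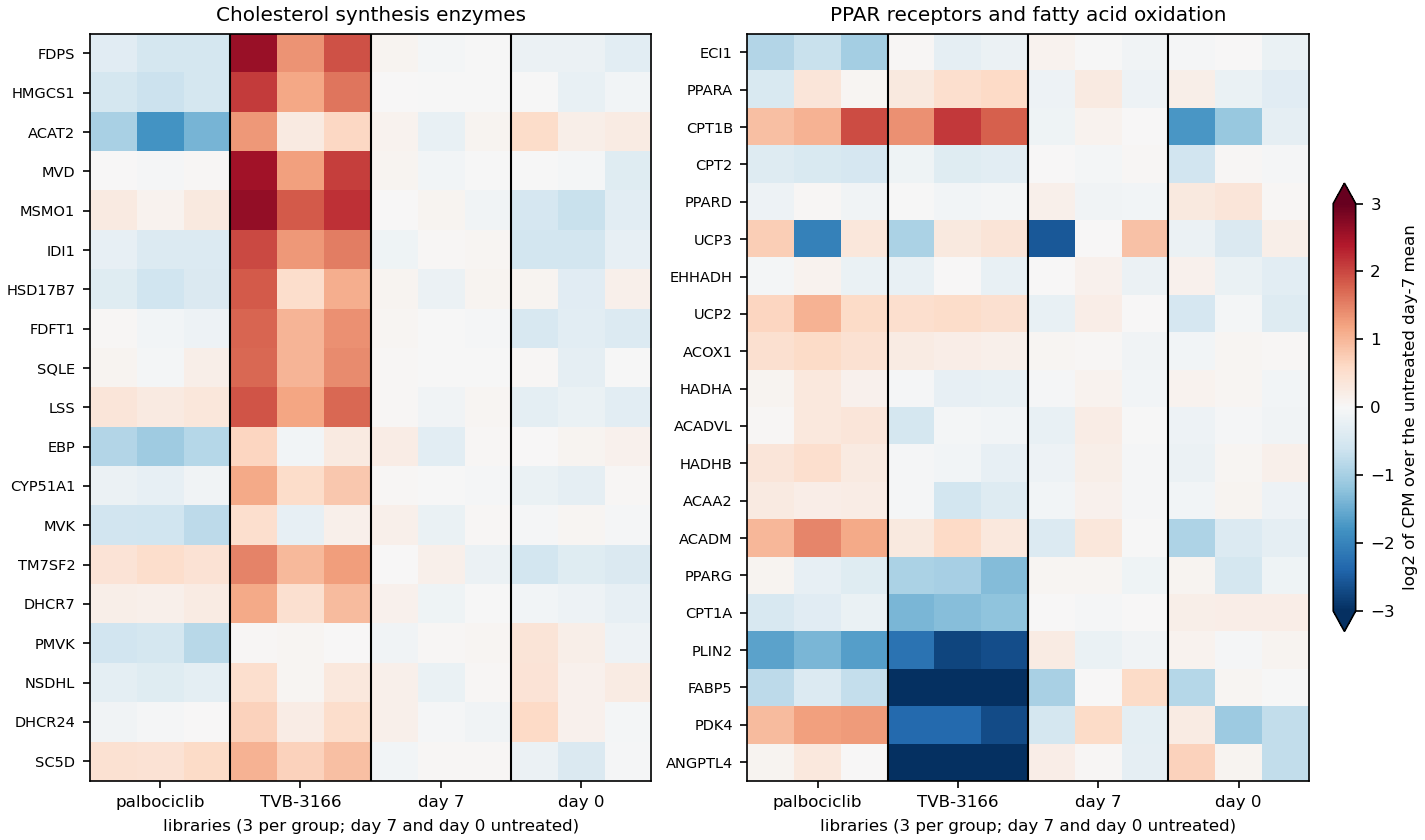
Colors show the log2 of the CPM of each library over the mean of the untreated day-7 libraries, for 19 of the 20 tested cholesterol synthesis enzymes (left) and 20 of the 21 tested PPAR and fatty acid oxidation genes (right), with 3 libraries per group in columns. Most cholesterol genes are red in TVB-3166 and near white or blue in palbociclib cells, with PMVK near white in TVB-3166, whereas ANGPTL4, PDK4, and FABP5 at the foot of the right panel are dark blue in TVB-3166 cells.

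Genes of the pathway that palbociclib blocks lay on both sides, with the largest differences among the CDK inhibitors and the E2F factors. Of the 27 tested genes of the CDK4/6-RB-E2F axis, 6 (22.2%) were higher and 10 (37.0%) were lower in TVB-3166 cells, with a median of -0.06. Of all genes tested, 20.0% were higher and 20.2% were lower. CDKN2B, the CDK4/6 inhibitor p15 (GRCh37 chromosome 9, positions 22002902 to 22009304), stood at 17.3, 20.7, and 22.9 CPM with TVB-3166 and at 87.4, 70.0, and 81.3 CPM with palbociclib (-1.97 ± 0.12). The palbociclib level was 3.92-fold higher, and both drugs were above the untreated day-7 cells, by 1.05 and 3.02 on the log2 scale. CDKN1A, the CDK inhibitor p21, lay the other way at 47.2, 36.1, and 39.5 against 26.5, 26.3, and 24.4 CPM (0.67 ± 0.11, edgeR adjusted p = 4.94e-04, and 0.0783 in the fit over all 24 libraries). It was above untreated cells with both drugs as well, by 1.79 with TVB-3166 and 1.12 with palbociclib. CDKN2C, which encodes p18, and CDKN1B, which encodes p27, were higher in TVB-3166 than in palbociclib cells (0.87 and 0.59). Over untreated day-7 cells, CDKN2C was called lower with both drugs, at -0.43 with TVB-3166 and -1.31 with palbociclib. CDKN1B was at 0.09 with TVB-3166, which was not called, and at -0.51 with palbociclib, which was called.

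The targets of palbociclib themselves differed modestly. CDK6 stood at 61.9, 64.9, and 61.2 against 86.6, 95.9, and 102 CPM (-0.60 ± 0.08), and its partner cyclin D1 (CCND1) at 305, 327, and 285 against 437, 496, and 398 CPM (-0.54 ± 0.10). Both were lower in every TVB-3166 library. CDK4 had 85.8, 81.0, and 80.9 against 96.8, 95.9, and 89.6 CPM (-0.19 ± 0.07, edgeR adjusted p = 0.0537), which did not pass the threshold, but did with the replicate number as a block (-0.19, adjusted p = 0.0189). RB1, the substrate of the kinases, was higher in TVB-3166 at 75.4, 75.8, and 72.0 against 56.8, 52.6, and 57.3 CPM (0.42 ± 0.07).

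Among the E2F factors, E2F3 (-1.20), E2F5 (-1.41), and the dimer partner TFDP2 (-1.48) were lower in TVB-3166 cells. E2F1, which drives entry into S phase, had 16.9, 13.2, and 14.4 against 14.6, 12.8, and 16.1 CPM, and the groups overlapped. Its log2 fold-change was 0.03 ± 0.13 (95% confidence interval -0.26 to 0.32), and relative to untreated day-7 cells it was -1.63 with TVB-3166 and -1.66 with palbociclib, both called.

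**Figure D3:**
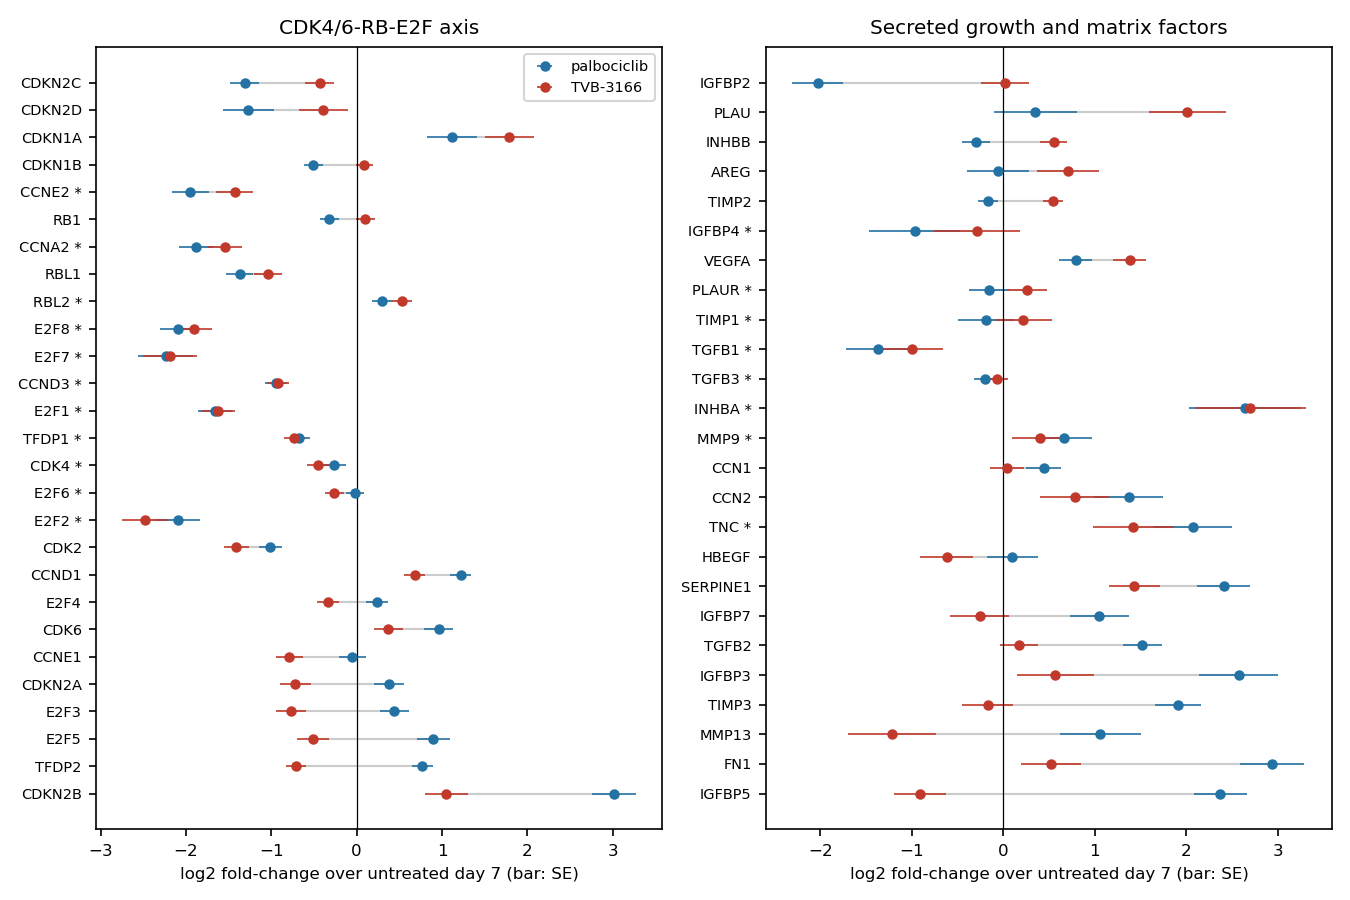
Points give the log2 fold-change of TVB-3166 (red) and palbociclib (blue) over untreated day-7 cells, with bars of 1 SE, for the tested genes of the CDK4/6-RB-E2F axis (left) and of secreted growth and matrix factors (right), ordered by the difference between the drugs; an asterisk marks genes not called between them. CDKN2B, IGFBP5, and FN1 show the widest gaps toward palbociclib, and IGFBP2 shows the widest gap toward TVB-3166.

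DNA replication genes fell with both drugs relative to untreated day-7 cells, and more of them were lower in TVB-3166 than in palbociclib. The median of the 41 tested genes was -1.44 with TVB-3166 and -1.09 with palbociclib, with 41 and 37 genes called lower, respectively. Between the drugs, 20 were lower and 4 were higher in TVB-3166, with a median of -0.22. ORC6, a subunit of the origin recognition complex, stood at 13.5, 12.8, and 13.2 against 31.8, 28.4, and 34.0 CPM (-1.25 ± 0.10). RFC3, part of the loader of the PCNA clamp, had 23.4, 23.0, and 21.6 against 52.9, 49.4, and 54.4 CPM (-1.20 ± 0.08), and TK1, the thymidine kinase, had 191, 157, and 164 against 357, 370, and 325 CPM (-1.04 ± 0.09). In these 3 genes the TVB-3166 libraries were all lower, and the palbociclib libraries were near the untreated level, with log2 fold-changes over day 7 of 0.07, -0.26, and 0.02, none called. GINS4, of the replicative helicase, was lower too (-1.12), whereas the primase PRIM1 (0.92), the licensing inhibitor GMNN (0.68), and the histone chaperone subunit CHAF1B (0.43) were higher. The number called higher was 7 without palbociclib replicate 1 and with the replicate number as a block.

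Mitotic genes fell with both drugs. Over the 39 tested genes, the median relative to untreated day-7 cells was -1.38 with TVB-3166 and -1.43 with palbociclib, and 39 and 38 genes were called lower. Between the drugs, 8 (20.5%) were lower and 3 (7.69%) were higher in TVB-3166, against 20.2% and 20.0% of all genes tested, and the median was 0.07. MKI67, which encodes the Ki-67 antigen, had 103, 70.3, and 89.3 against 83.6, 53.3, and 75.8 CPM, with overlapping groups. Its log2 fold-change of 0.30 ± 0.16 was not called (edgeR adjusted p = 0.167), and was with the replicate number as a block (0.31, adjusted p = 0.00113). The lower genes included the checkpoint proteins MAD2L1 (-1.07) and BUB1B (-0.75), the kinesin KIF23 (-0.85), and CDC20 (-0.81), and CKAP2L was the highest (1.03). The count of 3 higher genes was 9 without palbociclib replicate 1, 6 by DESeq2, 12 with the replicate number as a block, and 1 without TVB-3166 replicate 1, palbociclib replicate 2, or palbociclib replicate 3.

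Promoter sequences of both groups are shown because the shares of replication and mitotic promoters with 2 cell cycle motifs differed. In RefSeq promoter sequences (GRCh38.p14, from 250 bases before to 50 bases after the start of 10650 tested genes), the E2F-type letters TTTGGCG or TTTCCCG were found on either strand in 21 of 37 replication promoters (56.8%), 4 of 33 mitotic promoters (12.1%), and 9.4% of all. The CHR-type letters TTTGAA, a cell cycle element of mitotic promoters, were found in 1 of 37 (2.7%), 23 of 33 (69.7%), and 9.5% of all. The letters of the 2 motifs cannot overlap on either strand, so their matches were always separate stretches. The lines give RFC3 (chr13:33818074-33818148, plus strand) and CDC6 (chr17:40287819-40287878, plus strand, a licensing factor with -0.80 between the drugs, chosen after its value was seen) with the E2F-type match in capitals. They are followed by MKI67 (chr10:128126424-128126483, minus strand) and the spindle kinesin KIF11 (chr10:92593070-92593129, plus strand, -0.02 and not called) with the CHR-type match in capitals, each up to the base before the start. In RFC3 and KIF11 the match is on the opposite strand and reads as its reverse complement. A match is a stretch of letters and not a measured binding site.
RFC3: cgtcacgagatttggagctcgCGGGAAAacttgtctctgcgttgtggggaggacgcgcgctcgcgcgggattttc
CDC6: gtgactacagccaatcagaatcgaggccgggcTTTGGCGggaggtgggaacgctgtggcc
MKI67: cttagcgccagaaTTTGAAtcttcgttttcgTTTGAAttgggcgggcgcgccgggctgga
KIF11: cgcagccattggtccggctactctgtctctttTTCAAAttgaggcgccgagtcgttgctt

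Chromatin proteins that mark senescence lay on both sides, with 4 of 15 tested genes higher and 5 lower in TVB-3166. These were 26.7% and 33.3%, against 20.0% and 20.2% of all genes tested. HMGB2 (1.05) and LMNA (0.60) were higher in TVB-3166, and SUV39H1 (-0.72), HMGA1 (-0.66), LMNB2 (-0.60), and CBX3 (-0.48) were lower. LMNB1, a nuclear lamin whose loss is a common sign of senescence, had 32.0, 24.2, and 25.3 against 23.7, 15.0, and 19.1 CPM (0.49 ± 0.16). It was below untreated day-7 cells with both drugs, at -1.48 and -1.97. The call of LMNB1 between the drugs was lost in the fits without TVB-3166 replicate 1 (0.104), palbociclib replicate 2 (0.0962), and palbociclib replicate 3 (0.0732), and in the fit over all 24 libraries (0.0524) and with no filter on low counts (0.0506), with adjusted p-values in parentheses.

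Ribosome biogenesis was lower in TVB-3166 cells, with 25 of 34 tested genes called lower, 0 higher, and a median of -0.44. POLR1A, the largest subunit of RNA polymerase I, stood at 98.0, 93.4, and 110 against 142, 168, and 165 CPM (-0.66 ± 0.09), and the nucleolar protein NOLC1 at 119, 137, and 130 against 201, 213, and 196 CPM (-0.66 ± 0.08). Both had no overlap between the drugs. BOP1, which processes ribosomal RNA (-0.65), and LYAR (-0.64) were lower by a similar amount, and the whole group lay between -0.66 and 0.07. By DESeq2, 0 members were higher as well. Relative to untreated day-7 cells the median was -0.59 with TVB-3166 and -0.19 with palbociclib.

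Secreted growth and matrix factors were more often lower in TVB-3166 than in palbociclib cells, with 11 of 25 tested genes lower and 6 higher. IGFBP5, which binds insulin-like growth factors, stood at 59.9, 55.9, and 62.5 CPM with TVB-3166 and at 665, 405, and 662 CPM with palbociclib (-3.28 ± 0.17). Relative to untreated day-7 cells it was lower with TVB-3166 (-0.91) and higher with palbociclib (2.37). FN1, the matrix protein fibronectin, had 84.2, 114, and 131 against 461, 579, and 714 CPM (-2.41 ± 0.18), and stood 0.52 and 2.94 from the untreated level, of which the second was called. IGFBP2 was the reverse case, at 83.8, 59.4, and 69.1 against 19.2, 15.3, and 16.6 CPM (2.05 ± 0.13). Its level was near that of untreated cells with TVB-3166 (0.02) and lower with palbociclib (-2.03). The protease MMP13 (-2.27) and the inhibitor TIMP3 (-2.09) were lower in TVB-3166, and the protease PLAU (1.65) and the inhibin subunit INHBB (0.85) were higher.

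Genes of actin, adhesion, and the YAP pathway had a similar division, with 11 of 26 lower and 6 higher in TVB-3166. These were 42.3% and 23.1%, against 20.2% and 20.0% of all genes tested. The integrin ITGB6, which activates TGF-β, stood at 80.3, 137, and 126 against 333, 320, and 404 CPM (-1.62 ± 0.17), and the actin-binding caldesmon CALD1 at 35.7, 34.4, and 32.9 against 79.2, 79.3, and 88.4 CPM (-1.26 ± 0.08). Tropomyosin TPM2 (-2.30) and the laminin chain LAMA3 (-1.15) were lower as well. TAGLN (1.31), another actin-binding protein, the integrin ITGB4 (1.07), and the hyaluronan receptor CD44 (0.69) were higher in TVB-3166, so that members of the same families lay on both sides.

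Most tested interferon-stimulated genes were higher in TVB-3166 than in palbociclib cells, with 22 of 26 called higher and 15 of them at least 2-fold. The list was fixed at 41 genes, and those absent from the count table are not described. By edgeR, 0 were called lower, and 1, IRF1, was by DESeq2 (adjusted p = 0.0447) and with the replicate number as a block (adjusted p = 0.0131). The median was 1.13, and relative to untreated day-7 cells it was 1.41 with TVB-3166 and 0.26 with palbociclib. OAS1, which makes the second messenger of RNase L when it senses double-stranded RNA (GRCh37 chromosome 12, positions 113343661 to 113371024), stood at 43.8, 46.6, and 41.7 CPM against 3.07, 4.89, and 3.82 CPM (3.49 ± 0.15, edgeR adjusted p = 8.91e-08). OAS2 had 23.1, 28.5, and 23.1 against 1.04, 1.62, and 1.07 CPM (4.32 ± 0.18), and OAS3 had 44.0, 40.7, and 46.6 against 7.32, 6.60, and 6.48 CPM (2.68 ± 0.10). In each of these neighbors on chromosome 12, every TVB-3166 library was far above every palbociclib library. IFI6, an antiapoptotic mitochondrial protein, had 29.1, 29.7, and 33.4 against 2.95, 3.43, and 3.04 CPM (3.29 ± 0.12).

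The side of the untreated cells on which palbociclib lay differed among them. Over untreated day-7 cells, OAS1 was at 3.92 with TVB-3166 and 0.43 with palbociclib, and OAS2 at 4.79 and 0.46, where the palbociclib values were not called. Against day 0, OAS1 was called with palbociclib (0.75), and the palbociclib call of IFI6 was lost (-0.25). Against day 7, IFI6 was at 2.41 and -0.88, called in opposite directions, and OAS3 was higher with TVB-3166 (edgeR adjusted p = 1.72e-07) and at -1.18 with palbociclib (adjusted p = 6.70e-06). The factor IRF7 was higher in TVB-3166 (2.80). MX2, SP110, STAT2, and IRF1 were not called between the drugs, with log2 fold-changes of 0.75, 0.17, -0.08, and -0.33.

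**Figure D4:**
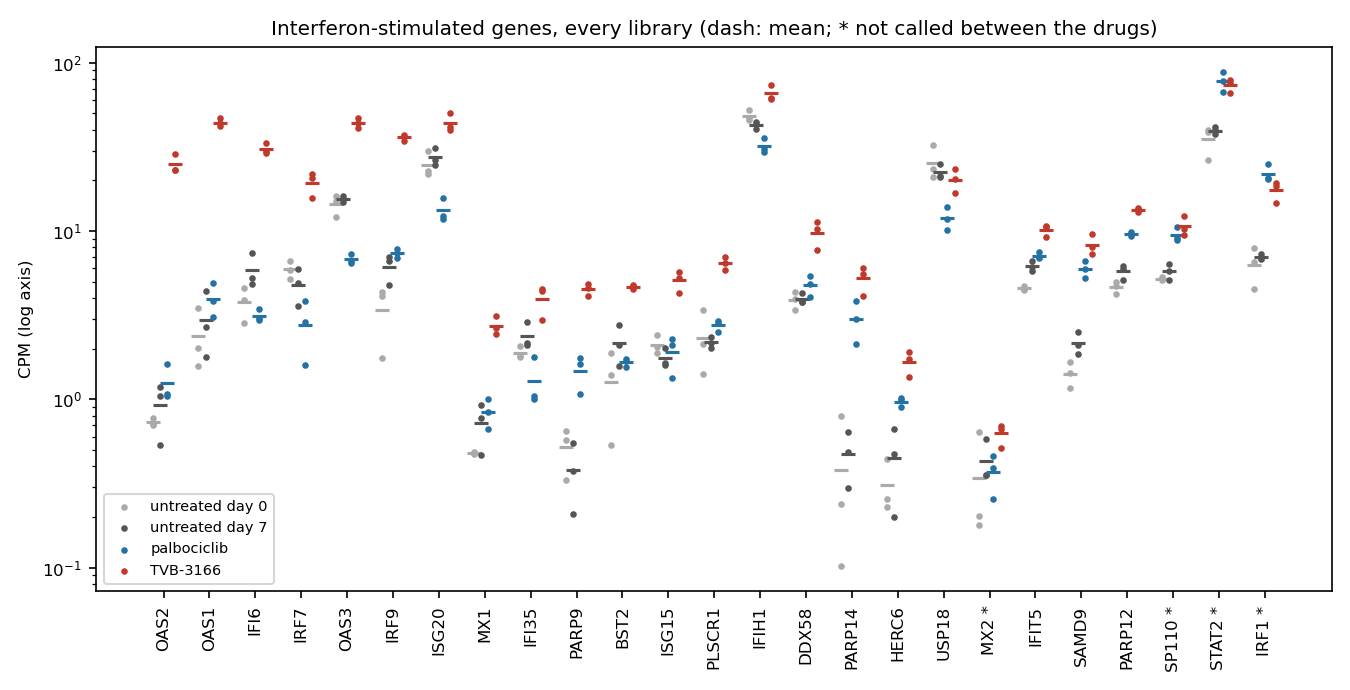
CPM on a log axis of 25 of the 26 tested interferon-stimulated genes in every library of TVB-3166 (red), palbociclib (blue), and untreated cells of day 7 (dark grey) and day 0 (light grey), with a dash at each mean and an asterisk at genes not called between the drugs. The red points of OAS2, OAS1, IFI6, and OAS3 lie far above the blue ones, and STAT2 and IRF1 at the right show no such gap; heights are not comparable between genes because CPM are not divided by gene length.

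Antigen presentation, also under interferon control, had 2 of 18 tested genes higher and 5 lower in TVB-3166. These were 11.1% and 27.8%, against 20.0% and 20.2% of all genes tested. NLRC5, the transactivator of MHC class I, was higher at 2.81, 2.31, and 2.15 against 0.839, 0.857, and 0.955 CPM (1.45 ± 0.24), and so was B2M, the light chain of MHC class I, at 399, 481, and 452 against 289, 328, and 337 CPM (0.48 ± 0.09). TAP2, of the peptide transporter (-0.84), and the immunoproteasome subunit PSMB8 (-0.68) were lower in TVB-3166. The count of 5 lower genes was 3 without TVB-3166 replicate 1 or palbociclib replicate 2 and 2 without TVB-3166 replicate 2.

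Inflammatory factors were divided, with 8 of 26 tested genes higher and 3 lower in TVB-3166 and a median of 0.22. These were 30.8% and 11.5%, against 20.0% and 20.2% of all genes tested. CX3CL1, the chemokine fractalkine, stood at 220, 220, and 211 CPM against 47.9, 45.2, and 45.9 CPM (2.22 ± 0.07). CCL22, which attracts regulatory T cells, had 24.9, 26.5, and 25.7 against 3.62, 4.89, and 3.37 CPM (2.70 ± 0.14), and both chemokines were separated by drug in every library. The macrophage growth factor CSF1 (1.74) and the protease inhibitor SLPI (1.44) were higher, whereas the superoxide dismutase SOD2 (-0.50) and TNFAIP2 (-0.99) were lower. LCN2, the siderophore-binding lipocalin, had 12.2, 23.3, and 22.0 against 6.51, 17.3, and 10.2 CPM, with overlapping groups. It was not called between the drugs (0.76 ± 0.31, edgeR adjusted p = 0.0714), but was with the replicate number as a block (0.80, adjusted p = 0.000194), without TVB-3166 replicate 1 (1.01, adjusted p = 0.0135), and without palbociclib replicate 2 (1.20, adjusted p = 0.0075). Over untreated day-7 cells, LCN2 was at 4.98 with TVB-3166 and 4.22 with palbociclib.

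The integrated stress response, which raises ATF4 and its targets when amino acids run short or unfolded proteins accumulate, was higher in TVB-3166 cells. Of 35 tested genes, 24 were higher and 2 were lower, with a median of 0.66. DDIT3, which encodes the factor CHOP, stood at 30.6, 48.2, and 39.2 against 10.7, 18.3, and 12.4 CPM (1.52 ± 0.20), and GDF15, a stress hormone, at 42.4, 37.6, and 43.3 against 11.6, 21.6, and 12.4 CPM (1.44 ± 0.19). PCK2, the mitochondrial carboxykinase, had 150, 158, and 176 against 33.4, 64.2, and 41.3 CPM (1.80 ± 0.19). In these 3 genes palbociclib replicate 2 was the closest to the TVB-3166 libraries, without overlap. Relative to untreated day-7 cells, GDF15 was at 3.72 with TVB-3166 and 2.28 with palbociclib, both called. SESN2 was higher as well (1.42), and ATF3 was lower (-0.55). The number of lower genes was 1 without TVB-3166 replicate 3, palbociclib replicate 1, or palbociclib replicate 2.

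The unfolded protein response had 8 of 21 genes (38.1%) higher and 2 (9.52%) lower in TVB-3166, against 20.0% and 20.2% of all genes tested. Its sensors ERN1 (0.96), EIF2AK3 (0.69), and ATF6 (0.46) and the factor XBP1 (0.62) were higher. The number of lower genes was 0 without TVB-3166 replicate 1, TVB-3166 replicate 3, or palbociclib replicate 3 and in the fit over all 24 libraries, and 1 without TVB-3166 replicate 2 or palbociclib replicate 1. In the lysosome group, 10 of 31 genes (32.3%) were higher and 2 (6.45%) were lower. The sialidase NEU1 led the higher ones, at 142, 105, and 120 against 54.0, 59.2, and 51.7 CPM (1.15 ± 0.11). The tetraspanin CD63 came next at 342, 341, and 347 against 161, 184, and 175 CPM (0.99 ± 0.08). GLB1, the gene of senescence-associated β-galactosidase, had 226, 198, and 207 against 199, 194, and 207 CPM and was not called (0.07 ± 0.08, 95% confidence interval -0.10 to 0.24). It was above untreated day-7 cells with both drugs, at 0.37 and 0.30. The lysosomal hydrolases GLA (-1.13) and GAA (-0.52) were lower in TVB-3166. The number of higher lysosomal genes was 6 in the fit over all 24 libraries, and the number of lower ones was 4 with the replicate number as a block.

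The BCL-2 family, which decides whether mitochondria release cytochrome c, had 3 of 11 tested genes higher and 2 lower in TVB-3166. These were 27.3% and 18.2%, against 20.0% and 20.2% of all genes tested. BIK, a BH3-only gene, had 16.8, 16.2, and 14.2 against 4.63, 4.22, and 4.42 CPM (1.82 ± 0.13), higher in every TVB-3166 library. The antiapoptotic members BCL2L2 (0.41) and BCL2L1, which encodes BCL-xL (0.22, edgeR adjusted p = 0.0422), were higher too. The call of BCL2L1 was lost in each of the 6 fits without a library (adjusted p = 0.0537 to 0.151) and over all 24 libraries (0.158). BMF (-0.83) and BID (-0.82), also of the BH3-only class, were lower, and the antiapoptotic MCL1 was not called (0.13). The p53 targets had 6 of 18 higher and 4 lower (33.3% and 22.2%, against the same background shares). BBC3, which encodes the BH3-only protein PUMA and is counted among them, stood at 17.4, 13.5, and 20.1 against 4.43, 5.62, and 4.75 CPM (1.78 ± 0.17), with DDB2 (1.72) and GADD45A (1.00) on the higher side and BTG2 (-1.63) and TP53INP1 (-0.78) on the lower side. The number of lower p53 targets was 2 without TVB-3166 replicate 3, palbociclib replicate 1, or palbociclib replicate 3 and in the fit over all 24 libraries.

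Luminal and HER2 genes were more often higher in TVB-3166, with 15 of 27 tested genes higher and 3 lower and a median of 0.25. MUC1, a mucin of the apical membrane, stood at 224, 223, and 231 against 58.4, 86.3, and 66.5 CPM (1.68 ± 0.12), and the luminal factor SPDEF at 401, 330, and 326 against 175, 204, and 153 CPM (0.99 ± 0.12). MIEN1, a neighbor of ERBB2 in the amplicon, was higher too (0.93). ERBB2 itself had 8830, 7480, and 8490 against 6450, 6410, and 6670 CPM (0.34 ± 0.11, edgeR adjusted p = 0.0230), and its call was lost in the fits without TVB-3166 replicate 1 (0.0657), TVB-3166 replicate 3 (0.0975), and palbociclib replicate 1 (0.0642), and in the fit over all 24 libraries (0.0574) and with no filter on low counts (0.0784). GATA3 (-0.56) and EGFR (-0.42) were lower in TVB-3166 cells, and the number of lower genes was 5 with the replicate number as a block.

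Genes of glycolysis and pyruvate entry lay on both sides. SLC16A1, which encodes the lactate and pyruvate carrier MCT1, stood at 8.26, 11.8, and 8.99 against 39.8, 40.1, and 41.3 CPM (-2.06 ± 0.13), and was lower than in untreated day-7 cells with TVB-3166 (-1.97), against a value of 0.09 with palbociclib that was not called (0.57 and called against day 0). Among the 29 tested genes, 10 (34.5%) were higher and 7 (24.1%) lower, against 20.0% and 20.2% of all genes tested. The aldolase ALDOC (0.97) and the hexokinase HK2 (0.69) were higher, as was PDP1, the phosphatase that opens pyruvate dehydrogenase (1.00), and the phosphofructokinase PFKM (-0.79) and the lactate dehydrogenase subunit LDHB (-0.83) were lower. Nuclear-encoded subunits of the respiratory chain had 24 of 57 genes (42.1%) higher and 1 (1.75%) lower, by small amounts with a median of 0.15. Relative to untreated day-7 cells, 0 of them were higher with either drug. In that fit 16 were lower with TVB-3166 and 35 with palbociclib, and the medians were -0.28 and -0.49. COX8A, a subunit of complex IV, had the largest difference between the drugs at 132, 117, and 119 against 77.9, 78.4, and 63.1 CPM (0.74 ± 0.10). The count of 24 was 12 without palbociclib replicate 3 and 5 in the fit over all 24 libraries, and the 1 lower gene, UQCRC2 (-0.22), was not called in the fits without TVB-3166 replicate 1 (0.0609), TVB-3166 replicate 2 (0.0770), TVB-3166 replicate 3 (0.0851), palbociclib replicate 2 (0.0790), and palbociclib replicate 3 (0.0863), and in the fit over all 24 libraries (0.0708).

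Some genes lay on opposite sides of the untreated day-7 cells, called higher with one drug and lower with the other, and at least 2-fold apart between the drugs. KLF4, a transcription factor that restrains proliferation of epithelial cells, stood at 85.6, 72.9, and 91.0 CPM with TVB-3166, 14.2, 16.1, and 13.0 CPM with palbociclib, and 34.9, 32.8, and 33.4 CPM in untreated cells. Its log2 fold-changes over day 7 were 1.31 and -1.22, with the 3 untreated libraries between both drugs. CEACAM5 (3.63 and -1.30), ST6GALNAC2 (2.46 and -1.23), SFMBT2 (1.33 and -1.41), and KLF2, a relative of KLF4 (1.25 and -1.38), went the same way, as did OAS3. In the reverse direction, the phosphatase UBASH3B had 1.91, 2.75, and 2.43 CPM with TVB-3166, 22.6, 22.4, and 19.6 CPM with palbociclib, and 8.31, 7.62, and 8.85 CPM untreated. AKAP12 (-1.55 and 2.41), CYP1A2, a cytochrome P450 of xenobiotic metabolism (-2.04 and 2.07), GABRE (-1.56 and 1.58), VASH2 (-1.48 and 1.54), and NRAD1 (-1.36 and 1.82) were likewise lower with TVB-3166 and higher with palbociclib. With day 0 as the reference, the TVB-3166 calls of CYP1A2 (adjusted p = 0.449), GABRE (0.49), VASH2 (0.141), and NRAD1 (0.0515) and the palbociclib call of ST6GALNAC2 (0.0729) were lost.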

How the data were processed

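Poly(A) or total RNA of SKBR3 cells was made into stranded libraries and sequenced in paired ends; the labels name an mRNA kit and the methods a total RNA kit of the same maker. Alignment by the authors used HISAT2 on GRCh37 and quantification used StringTie, and they deposited 1 table of raw counts per gene for all 24 libraries. Whether counting used the strand is not given in the sources used here, so that reads of overlapping and antisense genes cannot be told apart. A gene with a count of 0 in any library is not in the deposited table, which limits what can be said of genes that are silent with one drug. GRCh37 positions come from a GENCODE annotation lifted to that build, for 13890 of 14493 genes.

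Counts of the 3 TVB-3166 and 3 palbociclib libraries were filtered by edgeR's filterByExpr, scaled by TMM, and compared by edgeR's quasi-likelihood test (edgeR 4.0.16, R 4.3.3) with Benjamini-Hochberg adjustment over the 13776 genes tested. A gene is called at an adjusted p-value under 0.05. Standard errors are the absolute log2 fold-change over the square root of the F statistic, and 95% confidence intervals use the t distribution on the test's degrees of freedom. CPM were scaled by TMM over all 24 libraries. Each drug was also compared with untreated day-7 cells in a fit over all groups. The smallest p an exact permutation test could give for 3 against 3 libraries is 0.1, and none was used. On simulated counts for 13757 genes of the drug comparison, the test recovered 66 of 100 genes changed 1.5-fold and 95 of 99 changed 3-fold, with 9 false calls. No other tested genes were changed there, whereas 40.2% were called between the drugs, so these rates need not hold for the data.

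Replicate libraries differed beyond sampling noise (chi-square per degree of freedom 14.15 to 32.38), so none was counted as a duplicate. Deviations from the group means of libraries with the same replicate number correlated at 0.253, 0.125, and 0.305 over genes. Other pairs had -0.222 to -0.0157. Deviations from a group mean cancel within the group, so the correlations of both kinds of pairs are not independent. The numbers come from the labels, and this check cannot settle whether they pair the libraries. The fit with the replicate number as a block is therefore given where it changed a call.

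Alternatives were DESeq2 (1.42.0), its size factors in edgeR, no low-count filter, a minimum of 10 counts in each library, a fit over all 24 libraries, the replicate block, a fold-change threshold, each library left out, and day 0 as reference. Named genes were the 12 largest differences in each direction among called genes without overlap and with a mean of at least 1 CPM, a set of anchor genes, up to 4 called members per list and direction, and up to 6 genes called in opposite directions against day 7. Genes outside this rule are the members not called, CEACAM6, and those said to be chosen after their values were seen. The members and lists were chosen with earlier results of these data known. Some listed genes are counted in their groups but not reported here by name. Response elements of interferon and SREBP factors were not searched here. Promoter sequences are RefSeq's (GRCh38.p14).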

Additional observations from a re-analysis of the deposited data

How the results depend on the processing

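The number of genes higher or lower in TVB-3166 than in palbociclib cells stayed within 1.5 times 2754 and 2780 under DESeq2, its size factors, both other filters, the fit over all 24 libraries (2088 and 2159), and each library left out (2244 to 2570 higher and 2282 to 2500 lower). A fold-change of at least 2 left 518 and 657 genes with adjusted p-values and 530 and 672 with unadjusted ones. With the replicate number as a block, 3377 genes were higher and 3431 lower; apart from CDK4, LCN2, MKI67, and IRF1, which were called only then or in some fits, the block changed no call of a named gene. Of 202 named genes called between the drugs, 176 kept their call in all alternatives that were run on them (14 named genes did not pass the minimum of 10 counts in each library, and the fold-change threshold was applied to counts of genes only), 26 lost it in at least 1, and 0 reversed. Of 12 that were not called, 4 changed sign with a library left out: over the 6 such fits E2F1 ranged from -0.06 (without TVB-3166 replicate 1) to 0.11, KIF11 from -0.16 to 0.08 (without palbociclib replicate 1), STAT2 from -0.18 to 0.02 (without palbociclib replicate 3), and CYP1B1 from -0.43 to 0.08 (without palbociclib replicate 2). With day 0 as the reference in place of day 7, CYP1A1 was at 2.98 with TVB-3166 (called) and TK1 at -0.14 with palbociclib; 4 other values gained their call, those of FASN, SCD, OAS1, and SLC16A1 with palbociclib, and 6 lost it, those of CYP1A2, GABRE, VASH2, and NRAD1 with TVB-3166 and of IFI6 and ST6GALNAC2 with palbociclib. DESeq2 also called FASN with palbociclib (0.43). Where no cause is named, the cause was not tested.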

Other observations

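Gene families outside the lists, chosen after their values were seen, also differed between TVB-3166 and palbociclib TIS cells. Among 21 tested collagen chains, 8 were lower in TVB-3166 and 1 was higher, with a median log2 fold-change of -0.65 (edgeR, adjusted p-value under 0.05). COL12A1, which coats collagen fibrils, stood at 7.79, 11.9, and 13.1 CPM in TVB-3166 and at 96.2, 90.5, and 118 CPM in palbociclib cells (-3.22 ± 0.17). COL5A1, which starts fibril assembly, had 2.74, 2.69, and 2.29 against 10.2, 8.54, and 11.7 CPM (-1.98 ± 0.17). The hair keratins KRT81 (2.23) and KRT86 (2.82) were higher in TVB-3166, with near-identical sequences that could exchange reads, and 7 of 17 tested keratins were higher and 3 lower. Of 7 tested mucins, 3 were higher and 2 were lower. Among all genes tested, 20.0% were higher and 20.2% lower.

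Some single genes, also chosen after their values were seen, were lower in TVB-3166 than in palbociclib cells. CYP1A1, a target of the aryl hydrocarbon receptor, stood at 137, 194, and 184 CPM against 804, 1860, and 1240 CPM (-2.93 ± 0.26, edgeR adjusted p = 9.39e-06), and over untreated day-7 cells it was at -0.04 with TVB-3166 and 2.89 with palbociclib. With day 0 as the reference, the TVB-3166 value of CYP1A1 was 2.98 and called (adjusted p = 0.0061). ABCC4, an exporter of conjugates and cyclic nucleotides, had 3.81, 7.34, and 6.87 against 37.7, 58.9, and 64.0 CPM (-3.15 ± 0.24), and the retinal dehydrogenase ALDH1A3 had 132, 157, and 147 against 584, 599, and 553 CPM (-1.99 ± 0.09). UGT1A6 was lower as well (-1.57). CYP1B1, another target of the receptor, was not called (-0.21, adjusted p = 0.504, and 0.08 without palbociclib replicate 2).

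Of the 13 respiratory chain subunits encoded in mitochondrial DNA, 9 were higher and 0 lower in TVB-3166 cells (edgeR), with log2 fold-changes from 0.28 to 1.07. Among all genes tested, 20.0% were higher and 20.2% were lower. Palbociclib replicate 2 was the lowest of the 6 libraries in COX2 and ATP6, at 1970, 1350, and 2390 and 1360, 626, and 1420 CPM in palbociclib replicates 1 to 3, against 4770, 3580, and 3570 and 2870, 1810, and 1950 CPM with TVB-3166. In the fit over all 24 libraries neither was called (adjusted p = 0.0887 for COX2 and 0.205 for ATP6).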
